A study of Mus musculus with 6 samples.

Results

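The Hedgehog pathway was examined through 9 genes, picked by symbol from the deposited expression table: the receptor *Ptch1*, the co-receptors *Cdon* and *Boc*, the ligand-binding inhibitor *Hhip*, the transducers *Smo* and *Sufu*, and the transcription factors *Gli1*, *Gli2* and *Gli3*. Each of the 9 symbols matched 1 of the 53379 rows. The selection rule itself uses symbols and no measured value, though the list was drawn up with earlier results of these data known. RNA-seq was done on neural stem cells (NSCs), dividing cells that can give rise to neurons and glia, which were taken from the cortex of mouse embryos at E14.5 and carried *Tbl1xr1* flox/flox in both groups. The paper kept its NSCs routinely as neurospheres with bFGF and EGF and also used adherent cultures. Which format was sequenced is not stated. *Tbl1xr1* encodes a subunit of the NCOR corepressor complex, and its floxed allele has LoxP sites around exon 5. Cells received a lentivirus carrying GFP only (control libraries 1, 1_1 and 2) or Cre-GFP (libraries 2, 2_2 and 3, labelled Cre, and KO in the plots), and GFP+ cells were then sorted. The comparison asks which Hedgehog genes differ in mRNA level after *Tbl1xr1* deletion.

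In the absence of a Hedgehog ligand, the membrane protein PTCH1 keeps the transmembrane protein SMO inactive, and SUFU and protein kinase A hold the GLI factors back or promote their processing into repressors. When a ligand binds PTCH1 together with CDON, BOC or GAS1, SMO acts in the primary cilium and GLI proteins turn on target genes, among them *Gli1*, *Ptch1* and *Hhip*, so that *Ptch1* and *Hhip* form a negative feedback. In the embryonic telencephalon the pathway is known for ventral patterning, for the balance of GLI3 repressor and GLI activator, and for progenitor division and oligodendrocyte precursors.

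Recovered depth was 7510615 to 11161497 reads on genes in the control libraries and 11893230 to 14828100 in the Cre-labelled libraries. *Tbl1xr1* itself stood at normalized counts (reads divided by 1 size factor per library) of 2522, 2190 and 2721 in control and 3774, 3463 and 2905 in the Cre-labelled libraries, so its total mRNA was not lower in the latter (log2 fold change 0.45 ± 0.14 SE, limma adjusted p = 0.06). The limma adjusted p was 0.0234 without Cre-labelled library 3 and 0.0776 to 0.211 with any other library left out. The paper reports that PCR genotyping, RT-qPCR and Western blot of the sorted cells showed the correct genotypes and no *Tbl1xr1* mRNA or protein. The counts here do not show such a loss of mRNA. Gene-level counts do not separate exon 5 from the rest of the transcript, so they do not check its deletion. NSC markers were abundant in both groups, with a summed normalized count over 10 genes of 39204 to 43128 in control and 38416 to 41102 in the Cre-labelled libraries, of which *Nes* and *Sox1* fell. The cortical label was only partly matched by markers. Of 10 dorsal telencephalic genes, *Emx2*, *Pax6* and *Lhx2* were measured above the filter and did not pass the test, whereas *Neurog1* was at 0 in all libraries and *Emx1*, *Tbr1* and *Neurod1* had a normalized count under 2 in each. Among 12 ventral genes, *Dlx1* and *Six3* fell, with log2 fold changes of -5.60 and -8.12. Nothing in the labels says that libraries 1 and 1_1, or 2 and 2_2, came from separate cultures, so p-values measure only the spread between these libraries.

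Before the counts, the sequences in front of 3 of the genes are given, because *Ptch1* and *Hhip* are the textbook feedback targets of GLI factors and *Cdon* was the one of the 9 that passed the test. RefSeq windows of 300 bases (250 before and 50 after a start site, GRCm38.p6, printed 5′ to 3′ on the gene's strand) matched 7 of the 9 genes. The *Ptch1* window lies at chr13:63565686-63565985 on the minus strand, with its start site 7725 bases inside the outer start of the gene. The *Hhip* window lies at chr8:80057959-80058258 on the minus strand. The *Cdon* window lies at chr9:35451826-35452125 on the plus strand, with its start site 30548 bases inside the outer start of the gene, so it belongs to an internal start. Capitals mark a match to TGACGTCA, the cAMP response element.
Ptch1: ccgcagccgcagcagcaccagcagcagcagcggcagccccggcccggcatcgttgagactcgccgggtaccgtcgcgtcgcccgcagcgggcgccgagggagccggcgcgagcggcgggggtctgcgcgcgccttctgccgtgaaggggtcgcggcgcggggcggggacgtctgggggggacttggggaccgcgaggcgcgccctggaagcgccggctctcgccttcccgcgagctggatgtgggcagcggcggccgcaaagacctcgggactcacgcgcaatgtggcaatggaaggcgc
Hhip: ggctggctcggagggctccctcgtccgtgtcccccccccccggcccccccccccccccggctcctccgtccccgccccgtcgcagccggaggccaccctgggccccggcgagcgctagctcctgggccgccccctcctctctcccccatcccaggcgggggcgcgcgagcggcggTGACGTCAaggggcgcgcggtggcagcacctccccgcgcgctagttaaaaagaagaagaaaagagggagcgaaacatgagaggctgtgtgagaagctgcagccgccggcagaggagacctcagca
Cdon: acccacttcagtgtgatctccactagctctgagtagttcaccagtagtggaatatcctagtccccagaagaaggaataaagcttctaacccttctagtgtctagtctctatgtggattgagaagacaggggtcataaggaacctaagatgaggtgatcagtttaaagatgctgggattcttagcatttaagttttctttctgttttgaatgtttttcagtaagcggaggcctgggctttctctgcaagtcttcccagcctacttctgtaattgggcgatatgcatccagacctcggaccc
The *Ptch1* and *Hhip* windows were rich in G and C, at 76.3% and 73.7%, against a median of 52.7% over all 32851 windows, while the *Cdon* window was at 44.7%. The GLI consensus GACCACCCA was searched on both strands and was in 83 windows (0.253%) and in none of the 7. Its core ACCACCC, which lies within the consensus, was in 4.61% of all windows and in 1 of the 7, that of *Gli2*. TGACGTCA reads the same on both strands and was in 1.79% of all windows and in 1 of the 7, that of *Hhip*, 67 bases before the start site. These are matches of letters and not bound sites.

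Of the 9 genes, *Cdon* rose in the Cre-labelled libraries, and no other passed the test. *Ptch1* and *Hhip* had higher values and *Sufu* lower values without overlap between the groups, but all 3 missed the adjusted threshold. *Gli1* was near the detection floor in both groups. After a filter on low genes (mean normalized count of at least 10), 8 of the 9 genes could be tested, with *Gli1* below the filter, and 1 of 8 was higher and 0 of 8 lower at an adjusted p-value under 0.05, where 4.74% and 5.22% of the 14840 genes tested were called in each direction. With an unadjusted threshold of 0.05, 3 genes lay higher and 1 lower, against 12.2% and 13.2% of all tested genes (25.5% in either direction). The groups did not overlap in 3 genes that were higher and 1 that was lower, against 14.7% and 15.5% of all tested genes (30.3% in either direction). On recovered reads, edgeR called 1 of the 8 and DESeq2 called 3 of the 8, against 9.99% and 11.8% of all tested genes, and neither called any of them lower. The median log2 fold change of the 8 genes was 0.05, that of all tested genes was -0.001, and 4 of the 8 pointed each way. In bulk RNA, fewer cells of a type and less RNA per cell cannot be told apart.

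**Figure D1:**
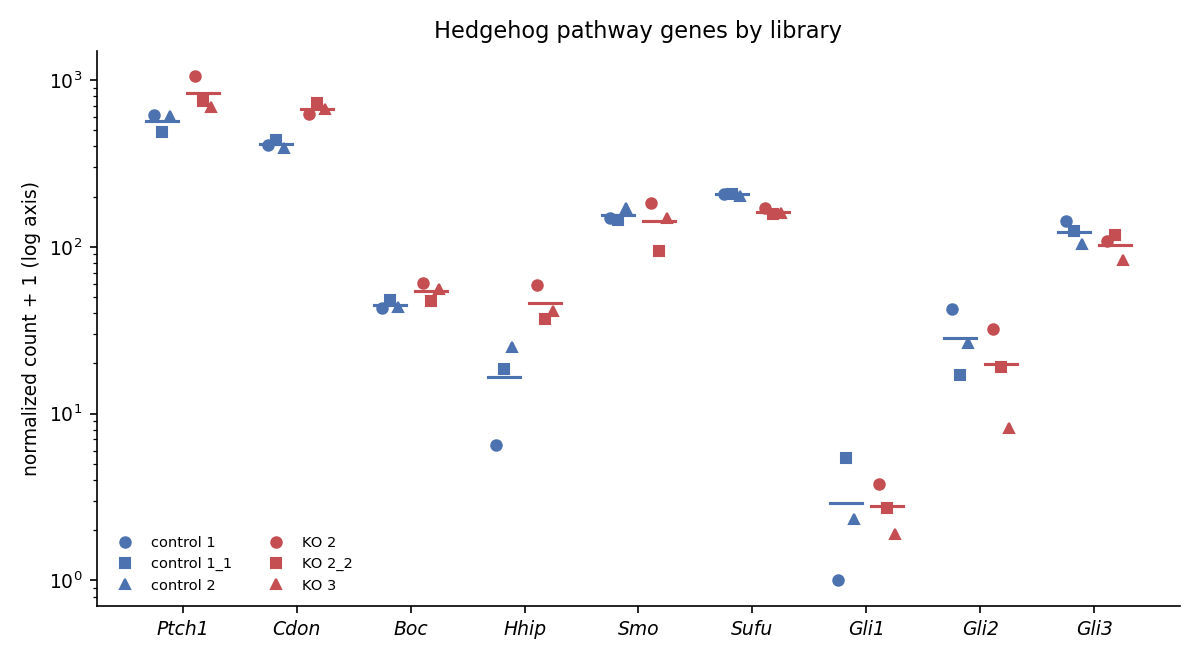
Normalized count + 1 (log axis) of the 9 Hedgehog genes in each of 3 control (blue) and 3 Cre-labelled (red, KO) libraries, with the group mean as a bar. *Cdon*, *Ptch1* and *Hhip* have all red points above all blue points and *Sufu* all below, while *Gli1* stays under a normalized count of 5 in every library.

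*Cdon* encodes an immunoglobulin-family surface protein that binds Hedgehog ligands with PTCH1. It had normalized counts of 407, 439 and 389 in control libraries 1, 1_1 and 2 and of 621, 730 and 671 in Cre-labelled libraries 2, 2_2 and 3. Every Cre-labelled library was above every control, and the spread within each group was small, with a coefficient of variation (CV) of 6.07% and 8.08%. The log2 fold change was 0.71 ± 0.13 SE (95% interval 0.43 to 0.99, a 1.63-fold rise, limma adjusted p = 0.006). *Cdon* passed the threshold in each of the 17 alternative settings tried, with adjusted p-values from 0.000329 to 0.041. The annotated small RNA Gm25630 lies within the *Cdon* locus.

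*Boc* encodes the closest relative of CDON and acts in the same step. It had normalized counts of 42.2, 46.8 and 42.7 in control and 59.6, 46.5 and 54.6 in the Cre-labelled libraries. The groups overlapped, since Cre-labelled library 2_2 lay just below control library 1_1, and the log2 fold change was 0.28 (95% interval -0.25 to 0.80, limma adjusted p = 0.519). The interval holds the value of *Cdon*, so no difference between the pair of co-receptors is shown by these fits. Per kb of exon, *Cdon* stood at 5.42 ± 0.15 (SD, n = 3) times the level of *Boc* in control and 7.40 ± 1.55 (SD, n = 3) times in the Cre-labelled libraries. That ratio was higher in all 3 Cre-labelled libraries (two-sided exact permutation p = 0.1, the smallest that 3 against 3 allows, 0.133 adjusted over 4 gene pairs).

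The third co-receptor, *Gas1*, a surface protein anchored by a lipid, had by far the most reads of the 3 genes. Its normalized counts were 3216, 2930 and 2443 in control and 3407, 2571 and 3136 in the Cre-labelled libraries. The groups overlapped (log2 fold change 0.08, 95% interval -0.23 to 0.40, limma adjusted p = 0.766). Per kb of exon, *Gas1* made up 93.2 to 94.6% of the sum of the 3 co-receptors in control and 89.2 to 92.5% in the Cre-labelled libraries. The share of *Cdon* was 4.60 to 5.70% in control and 6.47 to 9.72% in the Cre-labelled libraries, which do not overlap, and that of *Boc* was near 1% throughout. The rise in *Cdon* was thus one in a minor part of the co-receptor mRNA.

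*Ptch1*, the receptor and a direct GLI target, had normalized counts of 619, 484 and 604 in control and 1057, 751 and 684 in the Cre-labelled libraries. All Cre-labelled libraries were above all control libraries, with library 2 the highest. The log2 fold change was 0.53 ± 0.17 SE (95% interval 0.15 to 0.91, 1.44-fold), and the limma adjusted p of 0.0809 missed the threshold. On recovered reads edgeR gave an adjusted p of 0.0781 and DESeq2 one of 0.0453, and without Cre-labelled library 3 the limma adjusted p was 0.0384. Without Cre-labelled library 2 the log2 fold change was 0.34 (limma adjusted p = 0.131).

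*Hhip* encodes a membrane glycoprotein that binds and sequesters the ligands and is, like *Ptch1*, a feedback target. It was a low gene, with 6, 12 and 18 reads in control and 84, 42 and 45 in the Cre-labelled libraries, or normalized counts of 5.51, 17.6 and 24.0 against 58.2, 36.2 and 40.3. The groups did not overlap, but the control libraries differed widely among themselves (CV 59.9%). *Hhip* had the largest difference of the 8 tested genes, with a log2 fold change of 1.64 ± 0.48 SE (95% interval 0.59 to 2.69, 3.11-fold), and the limma adjusted p of 0.0527 narrowly missed the threshold. It was 0.051 with edgeR and 0.0153 with DESeq2 on recovered reads. Without control library 1, whose *Hhip* count was the lowest, the log2 fold change was 1.06 (limma adjusted p = 0.157).

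**Figure D2:**
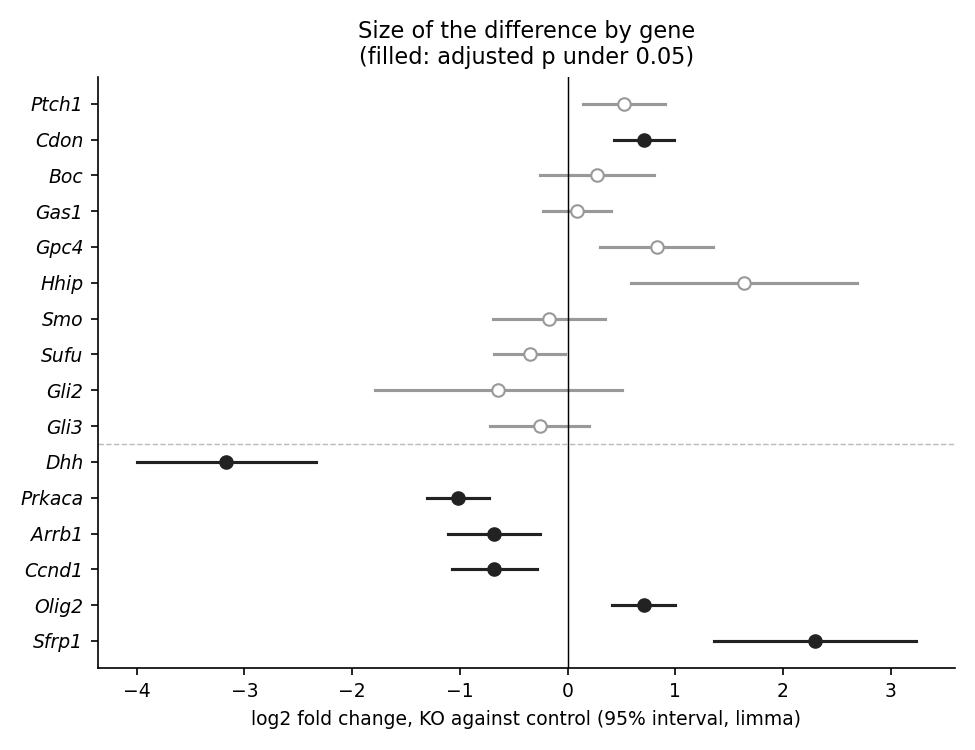
Log2 fold change of Cre-labelled libraries (KO) against control with the 95% limma interval, for surface genes, transducers and Gli genes above the dashed line and for the other Hedgehog genes past the threshold below it. Filled points have an adjusted p-value under 0.05: *Cdon* at 0.71 is the one filled point above the line, and the intervals of *Ptch1*, *Gpc4* and *Hhip* also lie to the right of 0.

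*Smo* encodes the transmembrane transducer that PTCH1 restrains. Its normalized counts were 148, 143 and 171 in control and 182, 93.0 and 148 in the Cre-labelled libraries. The Cre-labelled libraries lay on both sides of control, with 2 the highest and 2_2 the lowest of all 6, and the log2 fold change of -0.18 (95% interval -0.70 to 0.34, limma adjusted p = 0.698) turned to 0.10 without library 2_2. Reads on the pseudogene Gm13717, which overlaps *Smo* in the annotation, cannot be told apart without knowing how reads were counted. Per kb, *Ptch1* was 2.13 ± 0.25 (SD, n = 3) times the level of *Smo* in control and 3.55 ± 1.01 (SD, n = 3) times in the Cre-labelled libraries, with no overlap (two-sided exact permutation p = 0.1, 0.133 adjusted over 4 pairs).

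*Sufu* encodes the cytoplasmic protein that binds and restrains GLI factors. It had normalized counts of 207, 208 and 201 in control and 169, 156 and 158 in the Cre-labelled libraries. It was the tightest of the 9 genes, with a CV of 1.74% in control and 4.32% in the Cre-labelled libraries, and every Cre-labelled library was below every control. The log2 fold change was -0.35 ± 0.15 SE (95% interval -0.68 to -0.02), with an unadjusted p of 0.0396 and a limma adjusted p of 0.17. It was negative in all 17 alternative settings, between -0.38 and -0.33, and passed the adjusted threshold in 0 of them.

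*Gli3*, the main repressor of the family in the telencephalon, was the most abundant Gli mRNA. Its normalized counts were 141, 123 and 103 in control and 108, 116 and 82.4 in the Cre-labelled libraries, which overlap (log2 fold change -0.26, 95% interval -0.72 to 0.20, limma adjusted p = 0.482). *Gli2*, the main activator, had 45, 11 and 19 reads in control and 45, 21 and 8 in the Cre-labelled libraries. Its normalized counts were 41.3, 16.1 and 25.3 in control and 31.2, 18.1 and 7.16 in the Cre-labelled libraries, a wide spread in both groups (CV 46.2% and 63.9%). The log2 fold change of *Gli2* was -0.64 with a 95% interval of -1.79 to 0.50 (limma adjusted p = 0.485), so levels from 0.289 to 1.42 times control all lie within the interval at this depth. It was -0.11 without Cre-labelled library 3 and -1.10 without Cre-labelled library 2.

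*Gli1*, a target whose mRNA is a common readout of pathway activity, had 0, 3 and 1 reads in control and 4, 2 and 1 in the Cre-labelled libraries. Both groups lie about the floor of 3 reads, so no fold change is given and a difference in *Gli1* was not detectable at this depth. Because *Arhgap9* overlaps *Gli1* on the other strand and the strand setting was not given, even these few reads are not certain to be from *Gli1*. Among the 3 Gli genes, *Gli3* made up 71.0 to 78.5% of the sum per kb in control and 68.1 to 87.0% in the Cre-labelled libraries. The per-kb ratio of *Gli3* to *Gli2* was 3.61 ± 1.63 (SD, n = 3) in control and 5.11 ± 2.91 (SD, n = 3) in the Cre-labelled libraries, with overlap (two-sided exact permutation p = 0.6).

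Levels were compared between genes after division by the joined length of all annotated exons (GENCODE M1, mm9). The annotation used for counting is not given, and the transcripts in use may be shorter, so levels and ratios per kb are approximate. In control, *Ptch1* was the most abundant of the 9 at 86.6 ± 11.3 normalized counts per kb (SD, n = 3), followed by *Cdon* at 53.4 ± 3.24, *Smo* at 40.7 ± 3.89, *Sufu* at 29.6 ± 0.51, *Gli3* at 12.8 ± 2.02 and *Boc* at 9.85 ± 0.57. Neighbours in this order did not overlap over the 3 libraries. *Gli2* at 4.01 ± 1.86, *Hhip* at 3.20 ± 1.92 and *Gli1* at 0.504 ± 0.595 followed, and *Hhip* overlapped both *Gli2* and *Gli1*.

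In the Cre-labelled libraries the first 4 places were held by the same genes, *Ptch1* (126 ± 30.2 normalized counts per kb, SD, n = 3), *Cdon* (87.4 ± 7.06), *Smo* (37.3 ± 11.9) and *Sufu* (23.2 ± 1.00). *Boc* (12.02 ± 1.48), *Gli3* (10.7 ± 1.84) and *Hhip* (9.17 ± 2.39) came next, each overlapping its neighbour, and *Gli2* (2.74 ± 1.75) and *Gli1* (0.475 ± 0.248) were lowest. The mean of *Hhip* was below that of *Gli2* in control, with overlap, and above it in the Cre-labelled libraries, without overlap. *Ptch1* and *Cdon* were above all 3 Gli genes in both groups.

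**Figure D3:**
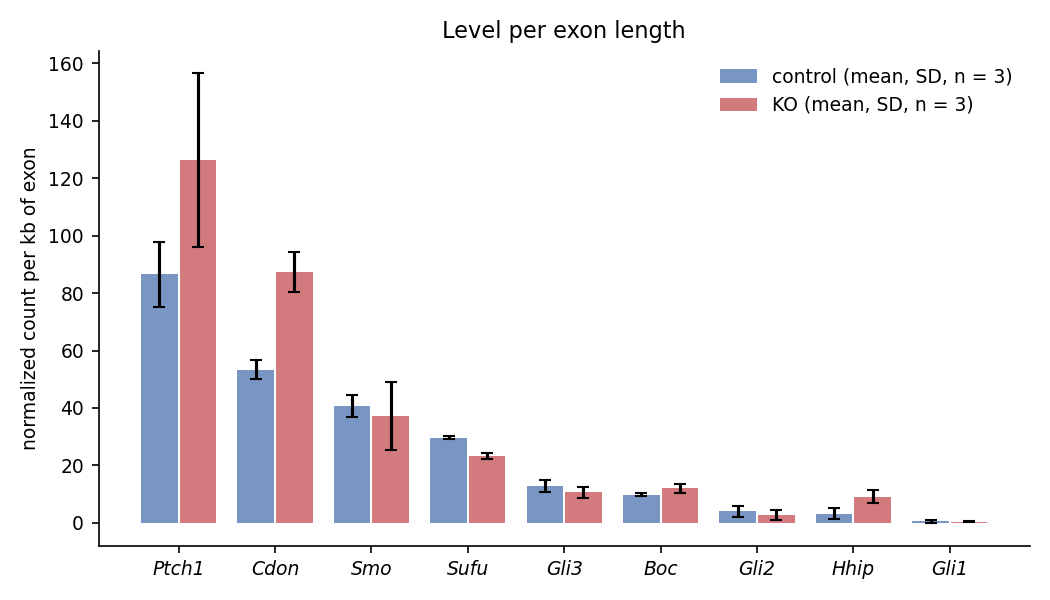
Normalized count per kb of exon for the 9 Hedgehog genes in control (blue) and Cre-labelled (red, KO) libraries, as mean bars with SD, n = 3 per group, in the order of the control levels. The bars fall from *Ptch1* (86.6 in control) to *Gli1* (0.504 in control), and the SD bars of the groups stand apart for *Cdon*, *Sufu* and *Hhip* and, by little, for *Boc*.

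Around the 9 genes, 85 further symbols of the pathway were examined in 5 lists (ligands and their release, other surface proteins, transduction, cilium transport, targets). Of these, 83 were found and 65 could be tested, while 18 were below the filter, 11 of them at 3 reads or fewer in every library. In all, 6 of the 65 passed the threshold (9.23%, against 9.96% of all tested genes), 2 higher and 4 lower. The median log2 fold change of the 65 was 0.06.

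Among the ligands, *Dhh* was the one measured above the filter, and it fell. *Dhh*, known best from Schwann cells and testis, had normalized counts of 78.9, 65.8 and 100.02 in control and 13.9, 6.89 and 5.37 in the Cre-labelled libraries. The groups were far apart, with a log2 fold change of -3.17 ± 0.38 SE (95% interval -4.00 to -2.33, limma adjusted p = 0.000656). *Shh*, the ligand of the ventral telencephalon, had 1, 2 and 0 reads in control and 0 in every Cre-labelled library, and *Ihh* had at most 1 read in any library. Both were at or under the floor of 3 reads per library in each group, so no fold is given. Of the 3 genes for ligand acylation and release that could be tested, *Hhat*, *Disp1* and *Disp2*, 0 passed with limma, edgeR or DESeq2. Among the other surface proteins 0 of 4 tested passed with limma, with 1 at an unadjusted p under 0.05, the nearest being the glypican *Gpc4*, named after its values were seen (51.4, 79.0 and 69.3 against 131, 133 and 92.2, log2 fold change 0.83, limma adjusted p = 0.0507), which edgeR and DESeq2 both called higher.

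Of 26 transduction genes, 24 were tested, with 12 pointing each way. Of the 24, 2 fell and 0 rose, where 5.22% of all tested genes were called lower and 4.74% higher. *Prkaca*, which encodes the main catalytic subunit of protein kinase A, the kinase that primes GLI factors for processing, had normalized counts of 5558, 5295 and 6275 in control and 3036, 2433 and 3008 in the Cre-labelled libraries. That is a log2 fold change of -1.02 ± 0.13 SE (95% interval -1.30 to -0.73, limma adjusted p = 0.000919), and it passed in all 17 alternative settings. The second catalytic gene, *Prkacb*, did not pass (log2 fold change 0.35, limma adjusted p = 0.128). Per kb, *Prkaca* stood at 14.6 ± 2.47 (SD, n = 3) times the level of *Prkacb* in control and 5.67 ± 1.13 (SD, n = 3) times in the Cre-labelled libraries, without overlap (two-sided exact permutation p = 0.1, 0.133 adjusted over 4 pairs). The sum of both per kb was 2479 to 2872 normalized counts in control and 1273 to 1543 in the Cre-labelled libraries.

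**Figure D4:**
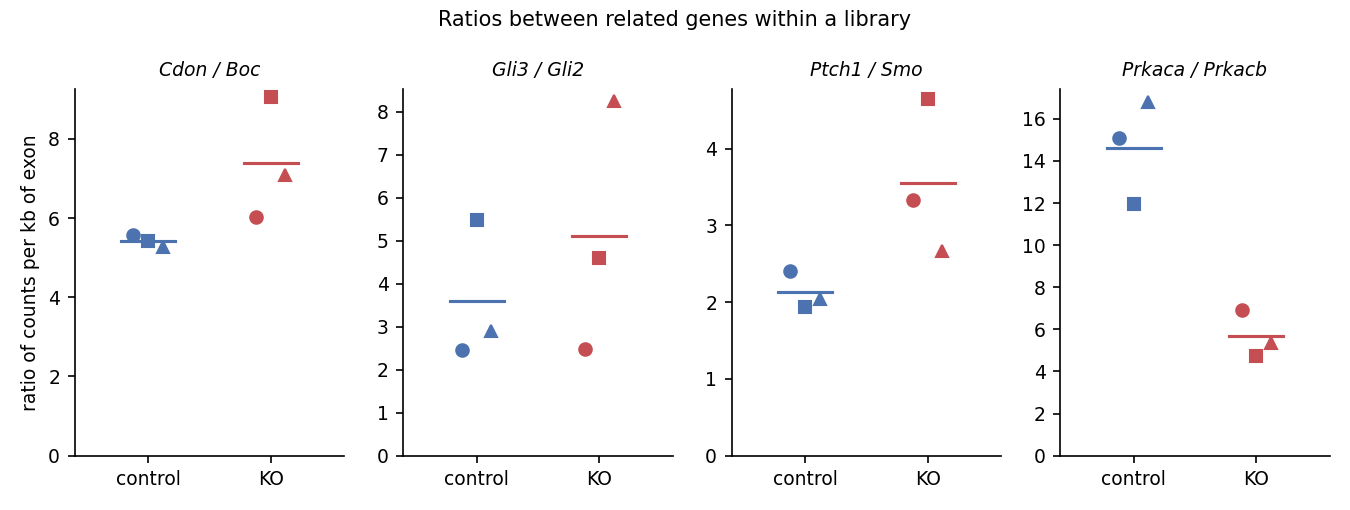
Ratio of normalized counts per kb of exon for 4 gene pairs within each control (blue) and Cre-labelled (red, KO) library, with the group mean as a bar and circles, squares and triangles for libraries 1, 1_1 and 2 (control) and 2, 2_2 and 3 (KO). The groups overlap for *Gli3* to *Gli2* and are apart for the other 3 pairs, of which *Prkaca* to *Prkacb* moves from 14.6 to 5.67.

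*Arrb1*, encoding a beta-arrestin that takes part in SMO trafficking, also fell, from 200, 162 and 209 to 130, 133 and 94.9 (log2 fold change -0.68 ± 0.19 SE, limma adjusted p = 0.0487). Its call held in 8 of 17 alternative settings and was lost without control library 1 (limma adjusted p = 0.184), 1_1 (0.0732) or 2 (0.176) and without Cre-labelled library 2_2 (0.0858) or 3 (0.0993). The call was also lost with edgeR on recovered reads (edgeR adjusted p = 0.0506). TMM scaling (limma adjusted p = 0.0508), total count scaling (0.0619) and averaging control libraries 1 and 1_1 (0.104) lost it as well. Genes for transport in the cilium, the organelle in which SMO acts, were all measured, with 23 of 23 tested and 0 called by limma, 0 by edgeR and 1 by DESeq2 (the kinesin gene *Kif3b*, higher). Of these, 18 had a positive and 5 a negative log2 fold change, with a median of 0.19 and a range of -0.44 to 0.62. Of all 14840 tested genes, 7403 had a positive value. With an unadjusted threshold of 0.05, 4 of the 23 lay higher and 2 lower, against 12.2% and 13.2% of all tested genes.

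Of 20 genes listed as Hedgehog targets, 10 were tested, 2 rose and 1 fell, where 4.74% and 5.22% of all tested genes did. *Olig2*, a transcription factor of ventral progenitors and the oligodendrocyte lineage, rose from 5541, 5556 and 4376 to 7954, 8145 and 9042 (log2 fold change 0.71 ± 0.13 SE, limma adjusted p = 0.00747). *Sfrp1*, a secreted Wnt antagonist, rose from 7.34, 10.2 and 4.00 to 29.1, 49.1 and 35.8 (log2 fold change 2.30 ± 0.43 SE, limma adjusted p = 0.00708). Its control values rest on 8, 7 and 3 reads, so the size of the rise is uncertain. *Ccnd1*, the G1 cyclin, fell from 20874, 16691 and 20484 to 13070, 14528 and 9165 (log2 fold change -0.68 ± 0.18 SE, limma adjusted p = 0.0376). The *Ccnd1* call held in 11 of 17 alternative settings. It was lost with no filter on low genes (limma adjusted p = 0.0512), with control libraries 1 and 1_1 averaged (0.0925), without control library 1 (limma adjusted p = 0.16), 1_1 (0.0628) or 2 (0.142) and without Cre-labelled library 3 (0.0656), and the gene overlaps *Oraov1* on the other strand. Of the ventral factors on the list, *Nkx2-1* and *Nkx6-1* had at most 1 read in any library, while *Nkx2-2* (7.34, 14.6 and 6.67 against 19.4, 8.61 and 20.6, limma adjusted p = 0.423) and *Nkx6-2* (231, 240 and 296 against 166, 220 and 241, limma adjusted p = 0.335) were measured above the filter and did not pass.

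**Figure D5:**
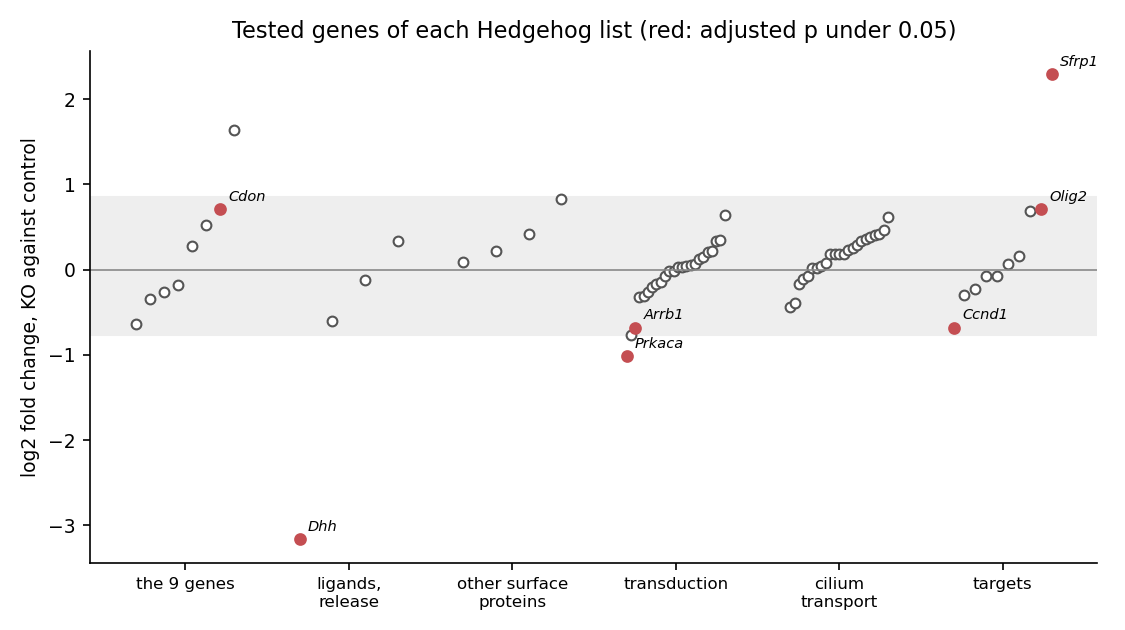
Log2 fold change of Cre-labelled libraries (KO) against control for each tested gene of the 9 Hedgehog genes and the 5 further lists, ranked within a list. Red points have a limma adjusted p-value under 0.05, and the grey band spans the 5th to 95th percentile of all 14840 tested genes (-0.77 to 0.85): of the red points, *Dhh* and *Prkaca* lie below it and *Sfrp1* above, while *Cdon*, at 0.71, lies within it, and of the open points *Hhip*, at 1.64, lies above it and *Efcab7*, at -0.77, at its lower edge.

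Markers of other cell types did not all move the same way. Of all tested genes, 4.74% were called higher and 5.22% lower. The summed normalized count of 11 astrocyte markers was 9481 to 10635 in control and 16947 to 22664 in the Cre-labelled libraries, and 6 of the 10 tested were called higher, although *Gfap* was near the floor and *Aldh1l1* lay lower without overlap (18.4, 19.0 and 14.7 against 9.003, 2.58 and 4.48, limma adjusted p = 0.065). That of 12 oligodendrocyte lineage markers, *Olig2* among them, was 12915 to 14832 against 17839 to 20146, with 3 of 8 tested called higher, while the mature markers *Mag* and *Mog* had means under 4. Most of that sum came from *Olig1* (mean 7872 in control and 8952 in the Cre-labelled libraries) and *Olig2* itself (5157 and 8380). The sum of 15 neuronal markers was 17845 to 18974 against 15397 to 17430, with 1 of 10 tested called higher and 1 lower. Most of it came from *Map2* (mean 9210 in control and 10541 in the Cre-labelled libraries) and *Gap43* (8711 and 5196). Of the microglial and the vascular markers, 4 of 9 and 3 of 9 were at 0 in every library, and 1 of each list could be tested. The microglial one, *Csf1r*, had normalized counts of 201, 154 and 195 in control and 162, 264 and 239 in the Cre-labelled libraries (limma adjusted p = 0.483). The vascular one, *Kdr*, lay lower without overlap but missed the threshold (34.0, 23.4 and 16.0 against 6.93, 10.3 and 8.95, log2 fold change -1.34, limma adjusted p = 0.0677). The part of these cell types in the values of *Cdon*, *Olig2* and *Sfrp1* was not tested.

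The genes whose pattern was most like that of *Cdon* over the 6 libraries were *Gm973* (Pearson r = 0.998), *Snap23* (0.998) and *Wls* (0.997). They were the top 3 of 11134 genes with a mean of at least 50, and 284 of those genes had r above 0.95, since any gene that separates the groups with little spread scores high.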

How the data were processed

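RNA-seq was analysed for 6 libraries, 3 control and 3 labelled Cre, grouped by the sample titles. The methods name TopHat with mm9 and mm10 and DESeq2, and the submitters' processing notes name STAR 2.7, DESeq2 and mm10. The read counter, strand setting and annotation are not given in the sources used here. The values that the authors deposited are normalized counts, a signal in which reads are divided by 1 size factor per library. The authors' own columns of means, fold changes, standard errors, statistics and p-values were not used. Of 53379 rows, 873 had no gene name and 1, with a missing value, was left out. The value of 1 read was found from the lowest counts, and 100% of values came out whole to within 6.8e-05.

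Tests used limma 3.58.1 in R 4.3.3 (lmFit, eBayes with trend) on log2(normalized count + 1) for 14840 genes with a mean of at least 10, two-sided, with Benjamini-Hochberg adjustment over all of them and a threshold of 0.05. Fold changes are on that scale, where the pseudocount weighs most on low genes. The tests were checked on simulated counts. Alternatives were edgeR 4.0.16 and DESeq2 1.42.0 on recovered reads, pseudocounts of 0.5 and 5, no filter, a mean of at least 50, TMM and total count scaling, averaged 1 and 1_1 or 2 and 2_2, a threshold of 0.1 and leaving out each library. Named genes were the 9 members, genes past the threshold in the other Hedgehog lists, *Shh*, *Ihh*, *Dhh*, *Gas1*, the 3 genes most like each called member and *Tbl1xr1*. Some items are not reported here. Other genes were named after their values were seen. The 9 genes and all lists were chosen with earlier results of these data known. Windows and positions came from RefSeq (GRCm38.p6), exon lengths and overlaps from GENCODE M1 (mm9), used for lengths and neighbours only.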

Additional observations from a re-analysis of the deposited data

How the results depend on the processing

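*Cdon* passed the threshold under every alternative tried, and so did *Dhh*, *Prkaca*, *Olig2* and *Sfrp1* under each alternative that tested them. The number of the 9 genes called, 1 with limma, was 3 with DESeq2 on recovered reads and 3 at an adjusted p-value under 0.1 (*Ptch1*, *Hhip* and *Cdon* in both), 2 with a pseudocount of 5 (*Hhip* and *Cdon*), and 1 to 2 when each library was left out, the 2 being without KO replicate 3. The number of all genes called, 1478, was 660 with control libraries 1 and 1_1 averaged and 2380 with the threshold at 0.1, and omitting 1 library gave between 558 (control replicate 1 omitted) and 2396 (KO replicate 2 omitted). The number called in the other Hedgehog lists, 6, stayed between 4 and 9. Among the 16 genes followed through all settings, directions turned for *Smo* (log2 fold change 0.0954 without KO replicate 2_2, with -0.39 as the other end of the range over omitted libraries) and for *Gas1* (-0.0249 without control replicate 2 and -0.0028 without KO replicate 2, with 0.20 at the other end). No scaling moved the median of all genes by over 0.1. Low reads limit *Gli1*, *Gli2* and *Hhip*, and also the fold changes of *Sfrp1* (8, 7 and 3 reads in control) and *Dhh* (20, 8 and 6 reads in the Cre-labelled libraries). No paired analysis was possible because the groups share only 1 replicate number.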
